A study of Mus musculus with 48 samples.

Results

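The 10 genes described here belong to the integrated stress response: the transcription factor genes Atf4, Atf5 and Ddit3, the target genes Asns, Trib3, Chac1, Sesn2 and Fgf21, and the phosphatase subunit genes Ppp1r15a and Ppp1r15b. They are 10 of the 20622 genes in the RNA tables, taken by gene symbol for their place in this pathway; the rule uses no measured value, although earlier results of these data were known when it was written. Ribosome-protected fragments (RPFs), which are the stretches of mRNA covered by translating ribosomes, and the cytoplasmic RNA of the same lysate were sequenced from 24 mouse livers, giving 48 libraries. The mice were wild-type (WT), carried Ctnnb1ex3/+ (B), an allele whose recombination stabilises β-catenin, carried R26-LSL-MYC (M), a MYC transgene behind a removable stop cassette, or carried both (BM). Each genotype had 3 mice at day 4 and 3 other mice at day 10 after injection of AAV8.TBG.Cre, a virus that expresses Cre recombinase from the hepatocyte-specific TBG promoter. All mice, WT mice included, received the virus at the same labelled dose, the higher of those the paper used. They were males on a mixed C57BL/6 background, 2 to 4 months old and at least 20 g, and had standard diet ad libitum. The time since the last meal is not given in the sources used here.

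In the integrated stress response, kinases that sense amino acid shortage, unfolded protein, double-stranded RNA or haem deficiency phosphorylate the α subunit of the translation initiation factor eIF2. General initiation falls, while mRNAs such as that of Atf4, whose leaders hold upstream open reading frames, are translated more, and the factors they encode switch on genes of amino acid supply, stress adaptation and cell death. The proteins GADD34 (Ppp1r15a) and CReP (Ppp1r15b) bring protein phosphatase 1 to eIF2 and reverse the phosphorylation.

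The upstream start codons that this control depends on are shown here because the RPF counts below cover the coding sequence only and do not count ribosomes on them. In the GENCODE gene models on GRCm39 the Atf4 leader holds 3 upstream ATGs, and the frame of the last one runs for 59 codons across the start of the coding sequence. The Atf5 leader holds 2, and the frame of the last one runs for 58 codons across the coding start. Ddit3, which encodes CHOP, has 2 and Ppp1r15a has 3, none of whose frames reaches the coding sequence. The end of the last Atf4 frame lies inside the coding sequence, and ribosomes on that end are not separated from coding ones in these counts. Each line gives 20 bases, 5′ to 3′, with the ATG in capitals.
Atf4 upstream ATG at chr15:80139495-80139514 (+), 475 bases before the coding ATG: ttttctctcATGgggccttt
Atf4 upstream ATG at chr15:80139873-80140413 (+, the window spans an exon junction), 97 bases before the coding ATG: gcctaagccATGgcgctctt
Atf4 coding ATG at chr15:80140491-80140510 (+): ccccacaacATGaccgagat
Atf5 upstream ATG at chr7:44464701-44465839 (−, the window spans an exon junction), 121 bases before the coding ATG: ttcgccgccATGgagtcctc
Atf5 coding ATG at chr7:44464580-44464599 (−): gtcacagccATGtcactcct
Ddit3 upstream ATG at chr10:127126689-127126708 (+), 131 bases before the coding ATG: gattatatcATGttgaagat
Ppp1r15a upstream ATG at chr7:45175503-45175522 (−), 104 bases before the coding ATG: gagggcgacATGaacccgct
Of 16181 transcripts, 62.8% had an upstream ATG and 19.9% had a frame that overlapped the coding start, so an ATG alone does not set these genes apart. Trib3, Chac1 and Fgf21 had no upstream ATG in their transcript models, Sesn2 had 1 and Ppp1r15b had 3.

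The promoters bear on the target genes, since dimers of ATF4 or CHOP with C/EBP proteins bind a composite element of the form TGATGNAA. In windows from 250 bases before to 50 bases after each annotated start (RefSeq, GRCm39), the letters TGATGNAA were found on either strand in 1304 of 32851 windows, 3.97%, and in 4 of the 10 windows of the 9 members that had one. Those 4 windows belong to Asns, Trib3, Chac1 and Fgf21, each printed on the strand of its gene with the match in capitals.
Asns, chr6:7693214-7693243: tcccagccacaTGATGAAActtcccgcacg
Trib3, chr2:152185948-152185977: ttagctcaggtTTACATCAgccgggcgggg
Chac1, chr2:119181519-119181548: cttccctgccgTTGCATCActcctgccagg
Fgf21, chr7:45265035-45265064: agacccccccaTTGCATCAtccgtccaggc
A match is a description of the letters and not of binding, and a window without one says nothing of the factor.

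RPF libraries held 9742197 to 14380713 counts and RNA libraries 3254141 to 6540116. Glul, a direct β-catenin target in hepatocytes, reached 1625 to 5199 CPM (library-scaled RPF counts) in B and BM mice against 507 to 860 in WT and M mice. Myc RPFs, counted on the mouse gene, lay at 43.7 to 164 CPM in M and BM mice and at 2.42 to 35.4 in WT and B mice, whereas Myc RNA overlapped between the groups, for example 20.6 to 25.8 CPM in M day 10 and 22.5 to 43.8 in WT day 10. The summed RNA CPM of 8 hepatocyte markers was 129074 to 136263 in WT mice, 101845 to 122976 in B day 4, 81504 to 101824 in M day 4, 60335 to 71106 in BM day 4, 63964 to 66229 in B day 10, 64654 to 80065 in M day 10 and 53036 to 55794 in BM day 10 mice. Markers of other cells also moved, in B, M and BM mice. The summed RNA CPM of 9 stellate cell markers at day 4 was 514 to 546 in WT, 471 to 513 in B, 366 to 445 in M and 269 to 337 in BM mice, and at day 10 it was 560 to 680, 305 to 384, 410 to 440 and 292 to 311. For 7 endothelial cell markers it was 394 to 413 in WT, 358 to 378 in B, 268 to 360 in M and 243 to 285 in BM mice at day 4, and 432 to 467, 313 to 378, 290 to 331 and 263 to 333 at day 10. Every B, M and BM range of these 2 lists lay below WT. For 10 Kupffer cell markers it was 310 to 361 in WT, 214 to 245 in B, 178 to 543 in M and 121 to 151 in BM mice at day 4, and 284 to 339, 313 to 344, 238 to 397 and 353 to 413 at day 10. In RPFs 9 of the 10 Kupffer cell markers were lower in BM day 4, where 24.7% of all genes were lower. In BM day 10, 5 were higher, where 24.5% of all genes were higher. The part of these shifts in the values below was not tested, and in whole liver fewer cells of a type and less RNA per cell cannot be told apart. CPM were scaled by the trimmed mean of M-values (TMM). Against library totals alone, this scaling lowered every BM to WT difference, by 0.42 (RPF) and 0.55 (RNA) on the log2 scale at day 4 and by 0.38 and 0.40 at day 10 for the median gene, so all differences are relative to that median. The WT mice are shared by the B, M and BM comparisons of a day, which are therefore given side by side.

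The members differed widely in abundance. Per kilobase of coding sequence, WT day 4 livers carried 17.9 ± 1.80 RPF CPM of Ppp1r15b (mean ± SD, n = 3), 12.3 ± 1.56 of Atf4, 9.71 ± 3.78 of Asns and 5.66 ± 1.01 of Atf5. Sesn2 lay at 4.24 ± 1.37 on the same scale, Chac1 at 4.59 ± 2.25, Fgf21 at 2.75 ± 1.36, Trib3 at 1.68 ± 0.68, Ppp1r15a at 0.719 ± 0.081 and Ddit3 at 0.551 ± 0.152. RNA, also per length, was highest for Atf4 with 54.3 TPM, a length-scaled share of transcripts, then Atf5 with 39.5 and Ppp1r15b with 28.2, and lowest for Trib3 with 0.397. Atf4 thus stood above Ppp1r15b in RNA and below it in coding-sequence RPFs. Ddit3 and Fgf21 were too scarce for most tests, and their counts are given.

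**Figure D1:**
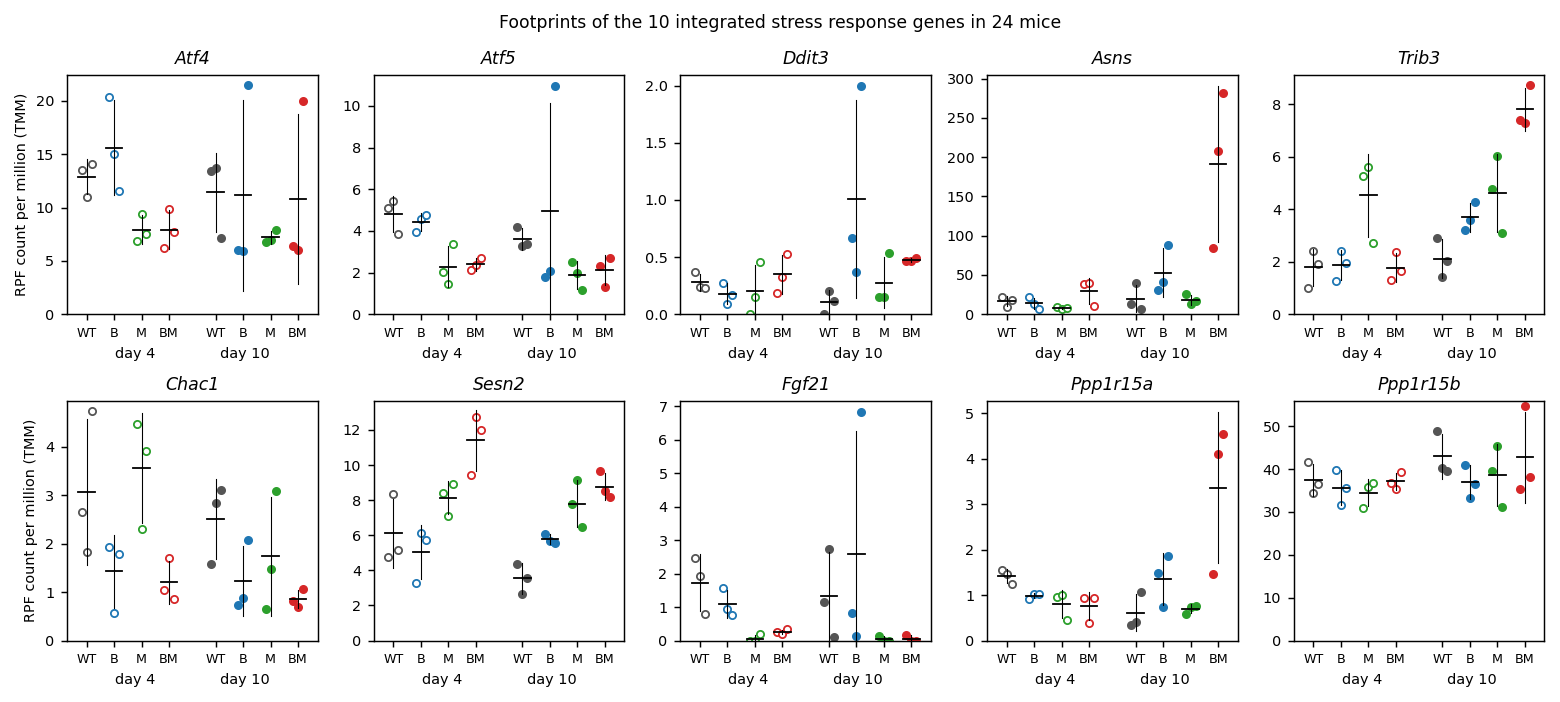
RPF CPM (TMM-scaled) of each of the 10 genes in each mouse, 1 panel per gene, by genotype, with open points for day 4 and filled points for day 10; bars are group means and lines are the SD of 3 mice. The 3 BM day 10 mice stand high for Asns (84.5, 208 and 281), Trib3 (7.39, 7.28 and 8.74) and Ppp1r15a (1.45, 4.10 and 4.53), and mouse 3 of B day 10 stands apart for Atf4 (21.5) and Fgf21.

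Atf4 (GRCm39 chromosome 15, 80139372 to 80141745, plus strand), the central transcription factor of the response, carried fewer RPFs in M and BM livers at day 4. Its RPF CPM were 13.5, 11.0 and 14.1 in the WT mice, 6.84, 9.42 and 7.53 in the M mice and 6.24, 9.86 and 7.70 in the BM mice, and neither group overlapped WT. The log2 difference from WT was −0.67 ± 0.16 (SE) in M (adjusted p = 0.0123, edgeR quasi-likelihood test, as for all tests here) and −0.69 ± 0.18 in BM (adjusted p = 0.00973), and with library totals the BM call was lost (−0.27, adjusted p = 0.188). Atf4 RNA CPM were 83.5, 71.2 and 82.0 in WT, 58.9, 70.6 and 64.9 in M and 60.7, 66.0 and 67.6 in BM mice of day 4. The RNA difference was −0.27 ± 0.10 in BM (adjusted p = 0.0497) and −0.26 ± 0.10 in M, which did not pass the threshold of 0.1 (adjusted p = 0.104). The RNA call in BM was lost without WT mouse 1, WT mouse 3 or BM mouse 1 (−0.34 to −0.22 over the 6 leave-out fits), and with library totals in place of TMM the BM RNA difference was 0.28 (adjusted p = 0.030). The lower Atf4 RNA call was also lost with DESeq2 (adjusted p = 0.116) and without the filter (adjusted p = 0.118). In B mice of day 4 the RPF CPM were 20.4, 15.0 and 11.5 and overlapped WT (log2 difference 0.25, adjusted p = 0.535).

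At day 10 the Atf4 RPFs of single mice diverged. WT mice had 13.4, 13.7 and 7.18 RPF CPM and M mice 6.74, 6.97 and 7.93. B mice had 6.02, 5.88 and 21.5, and BM mice 6.40, 6.04 and 19.9. In B and in BM, mouse 3 thus lay above the WT range in RPFs, while the other 2 mice of its group lay below it. Atf4 RNA did not separate these mice in the same way, at 72.7, 61.8 and 84.2 CPM in B and 73.0, 68.1 and 78.7 in BM, against 95.5, 72.1 and 65.9 in WT. The log2 ratio of RPF to RNA CPM was −3.59, −3.39 and −1.97 in the B mice and −3.51, −3.49 and −1.98 in the BM mice, where it lay between −3.28 and −2.37 in the 18 mice of the other groups. The group means therefore showed no difference from WT in B (−0.05 ± 0.49, adjusted p = 0.954) or BM (−0.11 ± 0.49, adjusted p = 0.87). Without mouse 3 of B the RPF difference was −0.99 (adjusted p = 0.0265), and without mouse 3 of BM it was −0.90 (adjusted p = 0.0689). The M difference was −0.68 ± 0.23 (adjusted p = 0.0964) and did not hold without WT mouse 1, WT mouse 2, M mouse 1 or M mouse 2, or with library totals (−0.45, adjusted p = 0.246).

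**Figure D2:**
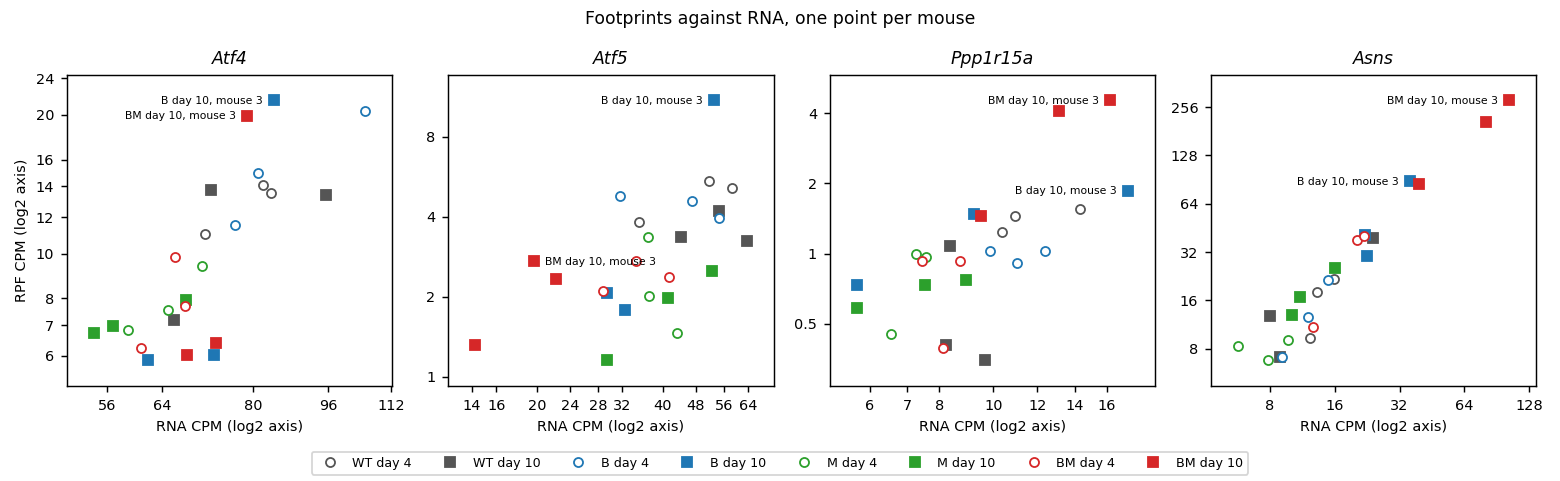
RPF CPM against RNA CPM, both on log2 axes, for Atf4, Atf5, Ppp1r15a and Asns, with 1 point per mouse, coloured by genotype, open for day 4 and filled for day 10. For Atf4, mouse 3 of B day 10 and mouse 3 of BM day 10 lie high on the RPF axis (21.5 and 19.9 CPM) at an RNA level within that of the other mice (84.2 and 78.7 CPM).

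Mouse 3 of B day 10 and mouse 3 of BM day 10 were looked at across genes, a choice made after their Atf4 values were seen. Atf4 is among the members counted, so these shares are descriptions. The RPF CPM of mouse 3 of B day 10 were the highest among the 6 mice of B and WT day 10 for 6 of 9 members (66.7%), against 16.8% of 12000 features and 14 of 40 other ATF4 and CHOP targets (35.0%). In RNA it was highest for 3 of 9 members (33.3%), against 17.0% of all features and 42.5% of those targets. Its Ddit3 RPF count was 29, against 9 and 5 in the other B mice and 0, 2 and 1 in WT. The Fgf21 RPF count was 99, against 11 and 2 in B and 13, 27 and 1 in WT. Mouse 3 of BM day 10 was the highest among the 6 mice of BM and WT day 10 for 4 of 9 members in RPFs (44.4%), against 24.3% of all features and 27.5% of the other targets. In RNA it was highest for 2 of 9 members (22.2%), against 23.0% of all features and 40.0% of those targets.

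Atf5 (chromosome 7, 44461680 to 44466082, minus strand), a transcription factor under similar leader control, also fell in M and BM. At day 4 the RPF CPM were 5.12, 5.45 and 3.83 in WT, 2.02, 1.45 and 3.36 in M and 2.10, 2.37 and 2.72 in BM mice, with no overlap with WT in either. The log2 differences were −1.06 ± 0.30 in M (adjusted p = 0.0242) and −0.99 ± 0.21 in BM (adjusted p = 0.00313). RNA CPM were 58.4, 51.7 and 35.2 in WT and 28.9, 41.5 and 34.6 in BM, an overlapping pair of groups whose difference was −0.46 ± 0.17 (adjusted p = 0.05). That RNA call was lost without WT mouse 1, WT mouse 2 or BM mouse 1 (−0.64 to −0.32 over the leave-out fits), and with library totals in place of TMM the difference was 0.09 (adjusted p = 0.635).

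In BM livers of day 10, Atf5 RNA was lower than in all other groups. RNA CPM were 22.2, 14.3 and 19.7, against 54.7, 63.5 and 44.3 in WT, and no BM day 10 mouse reached the lowest mouse of any other group. The difference was −1.54 ± 0.21 against WT (adjusted p = 0.000794), −1.14 ± 0.24 against M (adjusted p = 0.0118) and −0.91 ± 0.20 against BM day 4 (adjusted p = 0.0101), each kept in every leave-out fit. RPF CPM of BM day 10 were 2.33, 1.32 and 2.72, against 4.21, 3.25 and 3.35 in WT, a difference of −0.78 ± 0.32 (adjusted p = 0.0857) that was lost without any of the WT mice or without BM mouse 2. In M mice of day 10 the RPF CPM were 2.49, 1.98 and 1.15 (−0.95 ± 0.30, adjusted p = 0.0759), a call lost without any of the WT mice or without M mouse 2. With library totals the M and BM calls of day 10 Atf5 RPFs were both lost (−0.71, adjusted p = 0.121, and −0.41, adjusted p = 0.33). B mice had 1.78, 2.06 and 11.0, where mouse 3 again stood apart. The B difference was 0.45 ± 0.63 (adjusted p = 0.669) with that mouse and −0.95 (adjusted p = 0.0331) without it.

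Ddit3 (chromosome 10, 127124268 to 127132163, plus strand), which encodes the pro-apoptotic factor CHOP, was near the detection limit. RPF counts in WT mice were 4, 2 and 2 at day 4 and 0, 2 and 1 at day 10. BM mice had 3, 5 and 8 at day 4 and 8, 6 and 6 at day 10, and M mice had 0, 2 and 5, then 2, 2 and 7. Of the comparisons with WT, Ddit3 RNA passed the filter in B day 10, where CPM were 4.22, 1.95 and 4.32 in B and 1.26, 1.37 and 1.23 in WT, with no overlap. Ddit3 RNA was higher in B by 1.43 ± 0.41 (adjusted p = 0.0428), from 21, 11 and 24 counts against 6, 7 and 5. The call was lost without any of the WT mice or without B mouse 1 or 3 (1.24 to 1.72 over the leave-out fits). Ddit3 RPFs failed the filter in every comparison. Without the filter they were called higher in B day 10 (adjusted p = 0.0498), and in BM day 10, whose counts did not overlap WT, they missed the threshold (adjusted p = 0.109).

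Asns (chromosome 6, 7671667 to 7728461, minus strand), asparagine synthetase, a classical ATF4 target, rose in BM livers of day 10. RPF CPM were 84.5, 208 and 281 in BM day 10 mice, against 12.8, 39.1 and 7.06 in WT day 10 mice, and all 3 BM mice lay above WT. The difference was 3.27 ± 0.68 on the log2 scale (adjusted p = 0.00861), between 2.87 and 4.23 when single mice were left out. RNA CPM were 39.6, 80.5 and 103 against 7.99, 24.1 and 8.86, a difference of 2.40 ± 0.46 (adjusted p = 0.00401). BM day 10 mice also exceeded M mice, with 25.4, 13.1 and 16.8 RPF CPM, by 3.37 ± 0.48 (adjusted p = 0.0054), and BM mice of day 4 by 2.66 ± 0.59 (adjusted p = 0.0138). In RNA these differences were 2.56 ± 0.34 (adjusted p = 0.0016) and 2.00 ± 0.34 (adjusted p = 0.00332).

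In B mice of day 10 the Asns RPF CPM were 30.4, 40.8 and 88.1, and WT mouse 2 with 39.1 fell within them. The difference from WT was 1.42 ± 0.57 (adjusted p = 0.121), and without WT mouse 2 it was 2.38 (adjusted p = 0.0158). Asns RNA was 22.7, 22.2 and 35.6 CPM in B and overlapped WT through the same mouse (0.97 ± 0.36, adjusted p = 0.114), with 1.68 (adjusted p = 0.00349) when it was left out. With all mice, Asns RNA in B day 10 was called by DESeq2 (0.98, adjusted p = 0.0414), without the filter (0.97, adjusted p = 0.0099), with the replicate block (1.04, adjusted p = 0.0607) and with library totals (1.18, adjusted p = 0.0486). The RPF difference was called without the filter (1.42, adjusted p = 0.0944), with library totals (1.66, adjusted p = 0.0544) and without B mouse 1 (1.70, adjusted p = 0.0899). The comparison of Asns in BM with B, added after values were seen, gave 1.87 ± 0.53 in RPFs (adjusted p = 0.04) and 1.46 in RNA (adjusted p = 0.0129) at day 10. The RNA call was kept in every leave-out fit, and the RPF call was lost without B mouse 1, B mouse 2, BM mouse 2 or BM mouse 3 (1.49 to 2.45).

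At day 4 Asns was lower in M than in WT mice and higher in BM than in M mice. M mice had 9.12, 6.82 and 8.35 RPF CPM against 21.8, 9.33 and 17.9 in WT, lower by −1.0 ± 0.26 on the log2 scale (adjusted p = 0.0188), and RNA was lower by −0.80 ± 0.21 (adjusted p = 0.0158). BM mice had 38.2, 40.3 and 10.9 RPF CPM, where mouse 3 lay within WT, and the difference was 0.86 ± 0.41 (adjusted p = 0.115), with 0.42 in RNA (adjusted p = 0.122). Without BM mouse 3 it was 1.26 (adjusted p = 0.00253) in RPFs and 0.63 (adjusted p = 0.0146) in RNA, and without WT mouse 1 the RPF difference was 1.13 (adjusted p = 0.0954). With all mice, Asns was also called without the filter (0.88 in RPFs, adjusted p = 0.0669, and 0.45 in RNA, adjusted p = 0.0359) and with library totals (1.28, adjusted p = 0.0155, and 0.97, adjusted p = 0.000621). Tested directly, BM exceeded M by 1.86 ± 0.41 in RPFs (adjusted p = 0.00818) and 1.22 ± 0.23 in RNA (adjusted p = 0.0016).

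Trib3 (chromosome 2, 152179337 to 152191958, minus strand), a pseudokinase that restrains ATF4 and CHOP activity, rose in M on both days and in BM at day 10. At day 4, M mice had 5.26, 5.59 and 2.72 RPF CPM against 1.01, 2.42 and 1.92 in WT and 1.30, 2.37 and 1.66 in BM mice. The M mice lay above both groups, with a difference of 1.42 ± 0.36 from WT (adjusted p = 0.0164), while BM differed from WT by 0.04 and from M by −1.38 ± 0.32 (adjusted p = 0.01). By day 10, BM mice had 7.39, 7.28 and 8.74 RPF CPM, above every mouse of the other 7 groups. Their difference was 1.85 ± 0.28 from WT (adjusted p = 0.00265), 2.11 ± 0.26 from BM day 4 (adjusted p = 0.0018) and, in the comparison added later, 1.09 ± 0.21 from B (adjusted p = 0.014). Against M of day 10 it was 0.73 ± 0.28 (adjusted p = 0.0973), a call lost without any of the M mice or without BM mouse 2 or 3 (0.49 to 0.98 over the leave-out fits). M mice of day 10 had 4.76, 6.02 and 3.08 (1.10 ± 0.33, adjusted p = 0.0671), a call lost without WT mouse 2, WT mouse 3, M mouse 1 or M mouse 2. B mice had 3.19, 3.60 and 4.27, all above the WT mice with 2.89, 1.42 and 2.04, but missed the threshold (0.77 ± 0.29, adjusted p = 0.103). RNA held 2 to 17 Trib3 counts per library and failed the filter in each comparison with WT. Without the filter, Trib3 RNA was called higher in BM day 10 (adjusted p = 0.0401).

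Chac1 (chromosome 2, 119180757 to 119184866, plus strand), a glutathione-degrading enzyme downstream of ATF4, fell in BM on both days. In BM mice the RPF CPM were 1.05, 1.71 and 0.863 at day 4 and 0.814, 0.697 and 1.07 at day 10, against 2.65, 1.82 and 4.74 and then 1.58, 2.85 and 3.11 in WT, with no overlap on either day. The differences were −1.33 ± 0.38 (adjusted p = 0.0142) and −1.54 ± 0.37 (adjusted p = 0.0148), both kept in every leave-out fit. M mice had 4.47, 2.30 and 3.90 at day 4, and BM lay below them by −1.57 ± 0.34 (adjusted p = 0.00706). B mice had 1.93, 0.559 and 1.79 at day 4 (−1.11 ± 0.43, adjusted p = 0.161) and 0.743, 0.882 and 2.07 at day 10 (−1.01 ± 0.44, adjusted p = 0.152). Without B mouse 3 the day 10 difference was −1.62 (adjusted p = 0.0204), and without WT mouse 2 the day 4 difference was −1.35 (adjusted p = 0.0966). M mice of day 10 had 0.659, 1.47 and 3.08 (−0.53 ± 0.50, adjusted p = 0.531), with −1.20 (adjusted p = 0.0872) when M mouse 3 was left out. Chac1 RNA held 1 to 19 counts per library.

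Sesn2 (chromosome 4, 132219335 to 132237815, minus strand), a leucine sensor that restrains mTORC1, was raised in each mutant genotype by day 10. RPF CPM were 4.38, 2.64 and 3.59 in WT, 6.09, 5.66 and 5.58 in B, 7.77, 9.17 and 6.47 in M and 9.66, 8.52 and 8.16 in BM mice, and no mutant mouse lay within the WT range. The log2 differences from WT were 0.68 ± 0.22 in B (adjusted p = 0.0623), 1.13 ± 0.23 in M (adjusted p = 0.019) and 1.29 ± 0.23 in BM (adjusted p = 0.00532). The B call was lost without WT mouse 2, WT mouse 3, B mouse 1 or B mouse 2 and with DESeq2 (adjusted p = 0.109), and the M and BM calls were kept. At day 4 BM mice had 9.45, 12.7 and 12.0 against 4.76, 8.36 and 5.19 in WT (0.93 ± 0.21, adjusted p = 0.00434). M mice had 8.42, 7.12 and 8.90 (0.46 ± 0.21, adjusted p = 0.147), and without WT mouse 2 the difference was 0.74 (adjusted p = 0.0173). RNA followed in BM, with 2.94, 1.96 and 4.43 CPM in WT and 8.31, 4.37 and 6.65 in BM mice of day 10, which overlapped through a single WT mouse (1.08 ± 0.37, adjusted p = 0.0487). That RNA call was lost without WT mouse 1 or WT mouse 2 (0.78 to 1.37 over the leave-out fits). At day 4 Sesn2 RNA CPM were 2.73, 3.71 and 3.37 in WT and 4.28, 6.39 and 5.50 in BM mice, with no overlap (0.72 ± 0.28, adjusted p = 0.0584), a call lost without WT mouse 1, WT mouse 3, BM mouse 2 or BM mouse 3 (0.59 to 0.88) and with DESeq2 (adjusted p = 0.168).

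Fgf21 (chromosome 7, 45263301 to 45266963, minus strand), a hepatokine that is induced by ATF4 and, in fasting, by PPARα, was almost undetected in M and BM mice. RPF counts were 27, 16 and 7 in WT mice, 0, 0 and 2 in M mice and 4, 3 and 5 in BM mice of day 4. At day 10 they were 13, 27 and 1 in WT, 2, 0 and 0 in M and 3, 0 and 0 in BM mice. RNA counts were 5, 5 and 2 in WT day 4, 6, 7 and 2 in WT day 10, and 0 in all 6 M and BM mice of day 10. The gene failed the filter in these comparisons. Without the filter the RPF differences from WT were called lower in M day 4 (adjusted p = 0.00148), BM day 4 (adjusted p = 0.000516), M day 10 (adjusted p = 0.0362) and BM day 10 (adjusted p = 0.0252). No fold is given, because M and BM mice lie at or close to the limit of 3 counts. WT mouse 3 of day 10 also had 1 RPF count and overlapped M and BM. In B mice of day 10 the RPF counts were 11, 2 and 99, and the difference of 0.93 ± 1.09 (adjusted p = 0.601) rested on mouse 3.

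Ppp1r15a (chromosome 7, 45172340 to 45175692, minus strand), the stress-induced phosphatase subunit GADD34, reversed direction against WT in BM between the days. The WT mean itself was 1.42 RPF CPM at day 4 and 0.612 at day 10. At day 4 the RPF CPM were 0.926, 0.394 and 0.929 in BM against 1.55, 1.45 and 1.24 in WT, lower by −0.90 ± 0.35 (adjusted p = 0.0591), a call lost without WT mouse 1, WT mouse 2 or BM mouse 2, with DESeq2 (adjusted p = 0.182) and with library totals (−0.48, adjusted p = 0.278). At day 10 they were 1.45, 4.10 and 4.53 in BM against 0.351, 0.406 and 1.08 in WT, from 25, 53 and 55 against 4, 4 and 9 counts, and all BM mice lay above WT. The day 10 difference was 2.47 ± 0.60 against WT (adjusted p = 0.0154), 2.23 ± 0.49 against M (adjusted p = 0.0207) and 2.11 ± 0.52 against BM day 4 (adjusted p = 0.0203), and each was kept in every leave-out fit. Against B of day 10, with 1.49, 0.735 and 1.86 RPF CPM, the groups overlapped, and the difference of 1.30 ± 0.51 (adjusted p = 0.099) was lost without any of the B mice or without BM mouse 2 or 3 (1.01 to 1.69), with 0.25 ± 0.38 in RNA (adjusted p = 0.666). Ppp1r15a RNA CPM were 9.50, 13.1 and 16.2 in BM day 10 against 9.67, 8.23 and 8.36 in WT (0.54 ± 0.23, adjusted p = 0.0923), a call lost without any of the WT mice or without BM mouse 2 or 3 (0.37 to 0.71 over the leave-out fits), with DESeq2 (adjusted p = 0.183) and without the filter (adjusted p = 0.109). At day 4 RNA CPM were 14.3, 10.9 and 10.4 in WT, 7.58, 7.25 and 6.55 in M and 7.45, 8.12 and 8.70 in BM, with no overlap. The RNA differences were −0.71 ± 0.19 in M (adjusted p = 0.0214) and −0.54 ± 0.19 in BM (adjusted p = 0.0401), which with library totals in place of TMM was 0.01 in BM (adjusted p = 0.977). The BM call was lost without WT mouse 1 or BM mouse 1 (−0.63 to −0.40) and with DESeq2 (adjusted p = 0.114), and the M call without WT mouse 1 (−0.79 to −0.56) and with library totals (−0.35, adjusted p = 0.152).

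Ppp1r15b (chromosome 1, 133058881 to 133067539, plus strand), the constitutive phosphatase subunit CReP, varied little. Its RPF CPM lay between 31.0 and 54.7 over the 24 mice, with group means of 34.5 to 43.0, and its RNA CPM lay between 117 and 185. With TMM scaling and all mice no comparison called it. It was called in BM day 4 RNA without WT mouse 1 (0.26, adjusted p = 0.0845), in BM day 10 against day 4 RPFs without BM mouse 1 of day 10 (0.31, adjusted p = 0.0948) and in the RNA change of the BM effect without WT mouse 2 of day 10 (−0.42, adjusted p = 0.0886). With library totals Ppp1r15b was called higher in BM day 4 by 0.42 in RPFs (adjusted p = 0.00669) and 0.74 in RNA (adjusted p = 1.8e-05), beside median-gene shifts of 0.42 and 0.55, and in M day 4 RNA by 0.40 (adjusted p = 0.00566). That scaling also called it higher at day 4 in BM against M (0.30 in RPFs, 0.34 in RNA) and BM against B (0.40 and 0.53), and lower in the RNA change of the BM effect (−0.47).

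**Figure D3:**
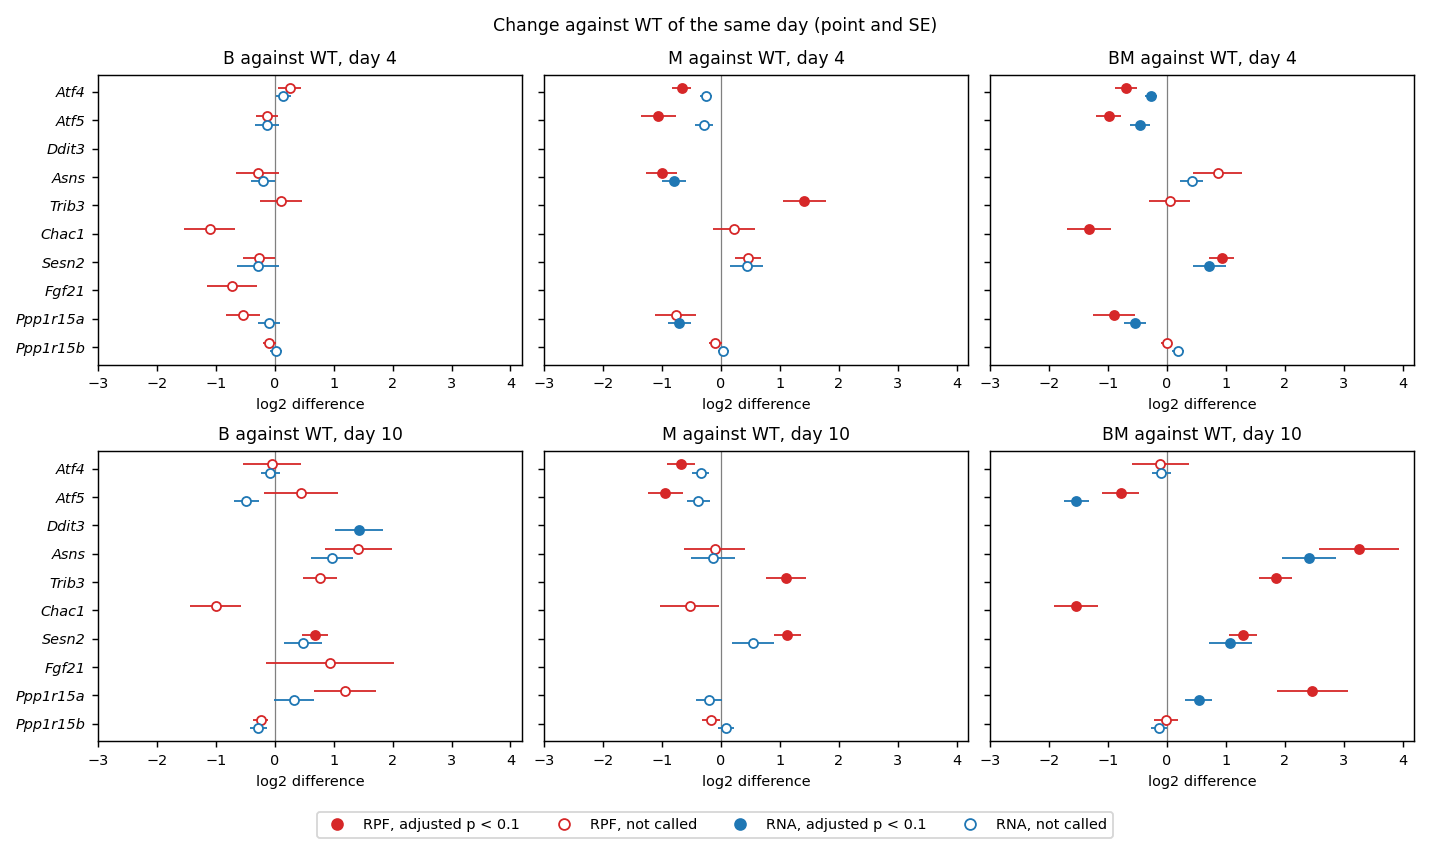
Log2 difference from WT mice of the same day with its SE, for each gene that passed the filter, in RPFs (red) and RNA (blue), for B, M and BM at day 4 and day 10; filled points have an adjusted p under 0.1. In BM day 10, Asns (3.27 in RPFs, 2.40 in RNA) and Ppp1r15a (2.47 and 0.54) lie to the right and Chac1 (−1.54 in RPFs) and Atf5 (−0.78 and −1.54) to the left.

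The number of members called has to be read against the share of all genes called. In RPFs, B day 4 called 0 of 9 tested members, with 1 at an unadjusted p under 0.05, where 12.5% of all genes were called, 6.21% higher and 6.26% lower. M day 4 called 4 of 8, 1 higher and 3 lower, where 33.3% of all genes were called, 18.5% higher and 14.7% lower. BM day 4 called 5 of 8, 1 higher and 4 lower, where 50.9% were called, 26.2% higher and 24.7% lower. B day 10 called 1 of 9, higher, where 25.2% were called, 13.1% higher and 12.1% lower. M day 10 called 4 of 7, 2 higher and 2 lower, where 19.4% were called, 10.6% higher and 8.80% lower. BM day 10 called 6 of 8, 4 higher and 2 lower, where 46.8% were called, 24.5% higher and 22.3% lower. Between genotypes, BM against M called 4 of 8 at day 4 (38.2%) and 3 of 8 at day 10 (32.7%), BM against B 4 of 8 (44.7%) and 4 of 8 (36.5%), and BM day 10 against BM day 4 called 3 of 8 (45.3%). Such shares lie near the background in most comparisons, so the members' direction and size carry the description, not their number. In BM day 10 Asns, Trib3, Sesn2 and Ppp1r15a rose while Atf5 and Chac1 fell. In BM day 4 Sesn2 rose and the other 4 called members fell, and with library totals 3 members were called higher and 2 lower. The M day 4 split became 2 higher and 3 lower with library totals, and the M day 10 split 2 higher and 0 lower. All shares above are for TMM scaling, so the splits with library totals cannot be read against them. Against TMM, library totals raised the median gene by 0.42 in BM day 4, 0.21 in M day 4 and 0.25 in M day 10.

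In RNA fewer members could be tested. B day 4 called 0 of 6, with 0 at an unadjusted p under 0.05, where 8.14% of all genes were called. M day 4 called 2 of 6 (23.7%), BM day 4 called 4 of 6 (41.9%), B day 10 called 1 of 7 (15.6%), M day 10 called 0 of 6, with 1 at an unadjusted p under 0.05 (15.7%), and BM day 10 called 4 of 6 (45.7%). BM against M called 1 of 6 at day 4 (30.5%) and 3 of 8 at day 10 (32.9%), BM against B 4 of 6 (34.8%) and 2 of 8 (31.8%), and BM day 10 against day 4 called 3 of 6 (39.7%). Of the 4 BM day 4 calls 1 was higher and 3 were lower (21.3% and 20.6% of all genes), and with library totals 4 were higher and 0 lower. The 2 M day 4 calls were lower, and with library totals 2 were higher and 1 lower. The RNA shares here are for TMM scaling, so the splits with library totals cannot be read against them. Against TMM, library totals raised the median gene in RNA by 0.55 in BM day 4 and 0.36 in M day 4. Of the 4 BM day 10 calls 3 were higher and 1 lower (22.9% and 22.8%).

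Translation efficiency, the RPF change beyond the RNA change, was tested as an interaction in a model of both libraries. The edgeR test called 0 of the 5 to 7 members tested in each of the 12 comparisons, with 0 to 2 at an unadjusted p under 0.05, and DESeq2 also called 0. All-gene shares were as low, at 0.0488% in B day 4, 0.971% in M day 4, 2.23% in BM day 4 (1.71% higher and 0.522% lower), 0.0564% in B day 10, 0.00% in M day 10 and 0.259% in BM day 10. They were 0.0943% and 0.132% for BM against M at day 4 and day 10, 1.12% and 0.169% for BM against B, 0.403% for BM day 10 against day 4 and 0.310% for the change of the BM effect. Atf4 had −0.41 ± 0.18 in M (adjusted p = 0.656) and −0.43 ± 0.20 in BM (adjusted p = 0.493) at day 4, and Atf5 −0.78 ± 0.33 in M day 4 (adjusted p = 0.619). Ppp1r15a had the value furthest from 0 in BM day 10, 1.89 ± 0.64 (adjusted p = 0.388). The RPF and RNA libraries of a mouse come from the same lysate, and with the mouse as a replicate block BM day 10 called 2 members, Asns (0.83, adjusted p = 0.0989) and Ppp1r15a (1.85, adjusted p = 0.0773). The block also called Atf5 in BM against M of day 10 (1.28, adjusted p = 0.0845) and in the change of the BM effect (1.27, adjusted p = 0.0763), and Atf4 in BM against B of day 4 (−0.55, adjusted p = 0.0284). The all-gene shares above are those of the fit without the block, so the blocked calls cannot be read against them. Without BM mouse 1 of day 10, the unblocked Ppp1r15a difference from WT was 2.12 (adjusted p = 0.00577).

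Other genes of the pathway were counted from lists chosen by their known role. Of 44 further ATF4 and CHOP targets, which serve amino acid supply, tRNA charging and cell death, 20 rose and 5 fell of 38 tested in BM day 10 RPFs, with a median log2 difference of 0.52 against 0.03 over all genes, where 24.5% of all genes rose and 22.3% fell. In RNA, 15 rose and 6 fell of 38, where 22.9% of all genes rose and 22.8% fell. Ddit4, an inhibitor of mTORC1, rose from a mean of 7.93 to 173 RPF CPM (4.42 ± 0.54, adjusted p = 0.00118), and the glutamine transporter Slc1a5 rose from 1.48 to 27.6 (4.19 ± 0.29, adjusted p = 0.000117). The transcription factor Atf3 rose from 1.57 to 6.73 (2.06 ± 0.40, adjusted p = 0.00681), the arginine transporter Slc7a1 by 2.80 ± 0.35 and the death receptor Tnfrsf10b by 2.77 ± 0.35, both with an adjusted p of 0.00138.

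The same list was counted in the other comparisons with WT. In BM day 4 RPFs 17 rose and 10 fell of 39, where 26.2% of all genes rose and 24.7% fell. In BM day 4 RNA 8 rose and 9 fell of 38, with a median log2 difference of 0.05, where 21.3% of all genes rose and 20.6% fell. In BM day 4 RPFs the largest changes were those of the serine synthesis genes Psat1 (1.54 to 18.7 CPM, 3.58 ± 0.21, adjusted p = 4.15e-07) and Phgdh (1.04 to 9.56 CPM, 3.17 ± 0.40, adjusted p = 9.25e-05), followed by Slc1a5 (2.38 ± 0.35, adjusted p = 0.00028), the neutral amino acid transporter Slc1a4 (2.25 ± 0.11, adjusted p = 1.88e-07) and the proline synthesis gene Pycr1 (1.87 ± 0.55, adjusted p = 0.018). Herpud1 and Dnajb9, genes of protein quality control in the endoplasmic reticulum, fell by 1.40 and 1.15 on the log2 scale in RNA. B day 10 had 10 higher and 3 lower of 38, against 13.1% and 12.1% of all genes. They included Atf3 (2.63 ± 0.50, adjusted p = 0.00819), Slc1a4 (2.57 ± 0.12, adjusted p = 2.92e-05), Slc1a5 (2.52 ± 0.20, adjusted p = 0.000157), Gdf15 (2.29 ± 0.30, adjusted p = 0.00166) and Tnfrsf10b (2.06 ± 0.25, adjusted p = 0.001). M had 9 higher and 11 lower of 36 at day 4 (18.5% and 14.7% of all genes) and 7 higher and 7 lower of 37 at day 10 (10.6% and 8.80%), and B day 4 had 5 higher and 7 lower of 36 (6.21% and 6.26%). In RNA, B day 10 had 9 higher and 3 lower of 38, M had 6 and 9 of 36 at day 4 and 7 and 7 of 35 at day 10, and B day 4 had 2 and 2 of 36. All-gene RNA shares called, in either direction, were 15.6%, 23.7%, 15.7% and 8.14% in that order. In translation efficiency 3 genes of this list rose and 0 fell of 37 in BM day 4, namely Phgdh (2.96 ± 0.54, adjusted p = 0.00765), Slc7a5 (1.45 ± 0.32, adjusted p = 0.0268) and Pck2 (0.85 ± 0.21, adjusted p = 0.0497). Over all genes, 1.71% rose and 0.522% fell in that test.

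**Figure D4:**
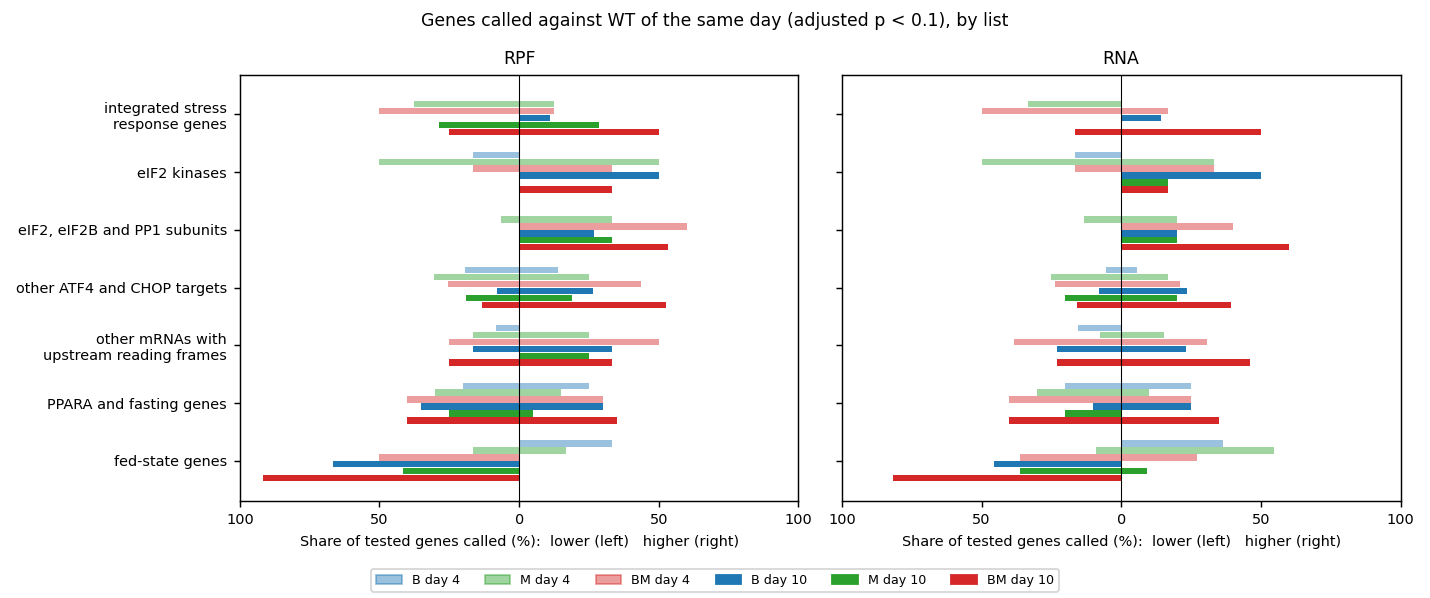
Share of the tested genes of each list called higher (right of 0) or lower (left of 0) than WT of the same day, in percent, for RPFs and RNA in separate panels, by genotype and day. In BM day 10, 20 of 38 further ATF4 and CHOP targets were called higher in RPFs and 5 lower.

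For the lists that follow, the all-gene shares called higher and lower in RPFs were 6.21% and 6.26% in B day 4, 18.5% and 14.7% in M day 4, 26.2% and 24.7% in BM day 4, 13.1% and 12.1% in B day 10, 10.6% and 8.80% in M day 10 and 24.5% and 22.3% in BM day 10. Upstream of the members, the list of 6 eIF2 kinase genes and their regulators moved in both directions in M day 4 RPFs (3 higher, 3 lower). It had 2 higher and 1 lower in BM day 4, 3 higher and 0 lower in B day 10, 0 called in M day 10, 2 higher and 0 lower in BM day 10 and 0 higher and 1 lower in B day 4. Impact, an inhibitor of the amino acid sensing kinase GCN2, rose in B day 10 from 11.3 to 30.1 RPF CPM (1.39 ± 0.22, adjusted p = 0.00393). The kinases act through their activity, which these counts do not measure. Of 15 subunits of eIF2, eIF2B and protein phosphatase 1 and related initiation factors, 9 rose and 0 fell in BM day 4 and 8 rose and 0 fell in BM day 10 RPFs. Eif2b3, a subunit of the exchange factor eIF2B, rose from 17.2 to 69.5 CPM in BM day 10 (1.99 ± 0.30, adjusted p = 0.00247). M had 5 higher and 1 lower at day 4 and 5 higher and 0 lower at day 10, B day 10 had 4 higher and 0 lower, and B day 4 had 0 called.

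Of 13 other mRNAs with translated upstream frames, 12 could be tested in RPFs. BM day 10 had 4 higher and 3 lower, near the all-gene shares of 24.5% and 22.3%, with the growth regulator Ifrd1 rising from 2.41 to 20.9 CPM (3.10 ± 0.38, adjusted p = 0.00119) and Cebpa, a hepatocyte transcription factor, falling from 122 to 44.7 (−1.47 ± 0.19, adjusted p = 0.00156). BM day 4 had 6 higher and 3 lower, B day 10 had 4 and 2, M day 4 had 3 and 2, M day 10 had 3 and 0, and B day 4 had 0 and 1. In translation efficiency edgeR called 0 of 12 in each of the 6 comparisons with WT.

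Fgf21, Asns and several targets also respond to feeding, so the genes of both states were counted. Of 12 fed-state genes of lipid and glucose handling, 0 rose and 11 fell in BM day 10 RPFs, with a median log2 difference of −2.45, where 24.5% of all genes rose and 22.3% fell. In BM day 10 RNA 0 rose and 9 fell of 11, where 22.9% of all genes rose and 22.8% fell. In the other RPF comparisons 0 rose and 8 fell in B day 10, 0 and 5 in M day 10, 0 and 6 in BM day 4, 2 and 2 in M day 4, and 4 and 0 in B day 4. In RNA, of the 11 tested, 3 rose and 4 fell in BM day 4, 6 and 1 in M day 4, 4 and 0 in B day 4, 0 and 5 in B day 10 and 1 and 4 in M day 10. All-gene RNA shares called, in either direction, were 41.9%, 23.7%, 8.14%, 15.6% and 15.7% in that order. Over these genes the median log2 RPF level, relative to the median of all mice, was −0.889, −2.32 and −2.61 in the BM day 10 mice, whose Asns CPM were 84.5, 208 and 281. WT day 10 mice had 0.757, 0.166 and 0.206, with Asns at 12.8, 39.1 and 7.06 CPM, and B day 10 mice −0.298, −0.300 and 0.0125, with Asns at 30.4, 40.8 and 88.1. The mouse with the highest Asns had the lowest fed-state level in BM and WT but the highest in B. Of 20 PPARα and fasting genes, 7 rose and 8 fell in BM day 10 RPFs, led by Igfbp1, a hepatic insulin-regulated secreted protein (90.6 to 2776 CPM, 4.93 ± 1.04, adjusted p = 0.00915). The part of feeding in the Asns, Fgf21 and Ppp1r15a values was not tested.

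The change of the BM effect from day 4 to day 10 was tested as an interaction over 12 mice. In RPFs 3 of 9 members were called, all higher (35.7% of all genes), and in RNA 3 of 7 (29.9%), with Asns and Ppp1r15a higher and Atf5 lower. Ppp1r15a RPFs changed by 3.38 ± 0.75 (adjusted p = 0.00674), Trib3 by 1.82 ± 0.48 (adjusted p = 0.0152) and Asns by 2.40 ± 0.89 (adjusted p = 0.0642). The Asns RPF call was lost without WT mouse 1 or 3 or BM mouse 3 of day 4, or without WT mouse 1 or 3 or BM mouse 2 or 3 of day 10 (1.99 to 3.38 over the 12 leave-out fits), and those of Ppp1r15a and Trib3 were kept in all.

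The levels were also ordered over the 8 groups. For Asns RPFs the order of mean CPM was BM day 10 (191 ± 99.4), B day 10 (53.1 ± 30.7), BM day 4 (29.8 ± 16.4), WT day 10 (19.7 ± 17.1), M day 10 (18.4 ± 6.30), WT day 4 (16.3 ± 6.37), B day 4 (13.7 ± 7.20) and M day 4 (8.10 ± 1.17), and each neighbouring pair overlapped. Trib3 RPFs in BM day 10 (7.80 ± 0.81) did not overlap their neighbour M day 10 (4.62 ± 1.47). For Sesn2 the order ran from BM day 4 (11.4 ± 1.73) to WT day 10 (3.54 ± 0.87).

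Fgf21, Asns and Ppp1r15a had the widest log2 range of group mean RPF CPM among the 9 members that passed the filter over all RPF libraries, which Ddit3 failed. For these 3, the genes with the most similar RPF profile over the 24 mice were taken by the root-mean-square difference of centred log2 CPM, among 11999 genes. Asns, whose own values varied by 1.45 on this measure, was closest to Klf6 (0.730), Lysmd2 (0.731) and Btg3 (0.806). Ppp1r15a (0.819) was closest to Ptp4a1 (0.385), Zfp281 (0.411) and Sat1 (0.460). Fgf21 (1.78) had no close profile, the nearest being Gm49601 (1.09), Cdhr2 (1.10) and Fabp5 (1.11).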

How the data were processed

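Per the labels and the study's methods, the authors trimmed RPF reads with Cutadapt 1.18, removed duplicate molecular identifiers, aligned with BBMap to filtered GENCODE vM27 protein-coding transcripts, and deposited whole-number counts of reads within the coding region, codons at its ends left out, for 1 transcript per gene, the most abundant. RNA reads were aligned by the authors with Bowtie2 2.3.5.1 and quantified with RSEM 1.3.3, which gave the deposited expected counts and TPM per isoform. A feature not listed in a file of RPF counts was taken as 0. Here expected counts were summed per gene and rounded; at least 99.92% of those above 0 were whole. Symbols came from GENCODE vM39 (20614 of 20622 gene IDs matched), as did positions and leader sequences on GRCm39; promoter windows came from RefSeq. Only the Atf5 and Ppp1r15a transcripts had the same version in vM27 and vM39. The Asns model differed in length, and its upstream ATGs were not used.

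RPF counts, RNA counts and their interaction (translation efficiency) were tested with edgeR 4.0.16 in R 4.3.3 (TMM, filterByExpr with a minimum count of 10 and a minimum total of 15, quasi-likelihood test, Benjamini-Hochberg adjustment over all genes tested, threshold 0.1), each fit holding the mice of the groups compared. CPM printed per mouse used TMM over all 24 libraries of a type. A limit of 3 counts was used for detection. DESeq2 1.42.0, relative-log-expression factors, library totals, no filter, a replicate block and leaving out each mouse were alternatives. The tests were tried on simulated BM and WT counts of day 4, with a fixed spread and changes in RPFs of well-counted genes only. That trial did not cover RNA changes, the replicate block or members with few counts.

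RPF and RNA libraries pair by mouse, per the titles: their deviations from group means correlated with r of 0.197 to 0.620 (median 0.415, n = 24). Equal replicate numbers in different groups gave r of −0.183 to 0.238 in RPFs and do not pair mice.

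All 10 members are described, but not each in every comparison, and some called results of BM against M and BM against B are not printed. Per other list and comparison, the genes named are among the 5 with the largest changes whose groups did not overlap. The members and lists were chosen with earlier results of these data known. Counting error and spread between mice are covered by the tests; each group is 3 mice, which the labels present as separate animals.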

Additional observations from a re-analysis of the deposited data

Results flagged for a closer look

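For 6 results the effect of the BM genotype against WT differed between day 4 and day 10 by the interaction test of edgeR (adjusted p under 0.1). In RPFs, Ppp1r15a changed by 3.38 (adjusted p = 0.00674), from −0.90 at day 4 to 2.47 at day 10, Trib3 by 1.82 (adjusted p = 0.0152), from 0.04 to 1.85, and Asns by 2.40 (adjusted p = 0.0642), from 0.86 to 3.27, all as log2 differences. In RNA, Ppp1r15a changed by 1.08 (adjusted p = 0.0166), Asns by 1.98 (adjusted p = 0.0203) and Atf5 by −1.08 (adjusted p = 0.0186). The mice of the days are different animals.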

How the results depend on the processing

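Of 68 called gene results, 41 kept their call when each mouse was left out in turn, and 3 reversed under some setting, as did 2 results that were not called. With library totals in place of TMM, an alternative chosen after seeing the data, BM day 4 RNA of Atf4, Atf5 and Ppp1r15a gave 0.28, 0.088 and 0.0068 (log2) and BM day 4 RPFs of Ppp1r15b 0.42; without B day 10 mouse 3 its Atf5 RPF difference was −0.95. Numbers of members called against WT moved with library totals to 1 (B day 4 RNA), 4 and 2 (B day 10 RPF and RNA) and 2 (M day 10 RPF), and to 2 in BM against M day 4 RNA. DESeq2 gave 1 in BM day 4 RNA, 0 in B day 10 RPF and 2 in B day 10 RNA. Without the filter they were 3 and 3 (B day 10 RPF and RNA), 1 (M day 10 RNA) and 2 (BM against M day 4 RNA). With the replicate number as a block they were 1 (B day 4 RPF), 2 and 2 (B day 10 RPF and RNA) and 2 (M day 10 RPF), and in translation efficiency, where the block is the mouse, 2 (BM day 10), 1 (BM against M day 10), 1 (change of the BM effect) and 1 (BM against B day 4); no other number of calls moved by over 1.5 times under the block. Leaving out single mice gave ranges of 0 to 1 (B day 4 RPF), 1 to 3 (M day 4 RNA), 1 to 4 (BM day 4 RNA), 0 to 4 and 0 to 1 (B day 10 RPF and RNA), 1 to 6 and 0 to 1 (M day 10 RPF and RNA), 1 to 3 (BM against M day 4 RNA), 3 to 5 (BM day 10 against day 4 RPF), 1 to 3 (BM against B day 4 RNA) and 1 to 5 (BM against B day 10 RPF). In translation efficiency the range was 0 to 1 for BM day 10, BM against M day 10, BM day 10 against day 4 and the change of the BM effect. Calls gained with library totals also included Sesn2 in M day 4 (0.67 in RPFs, 0.79 in RNA) and BM against B day 10 RNA (0.78), B day 10 RPFs of Trib3 (1.03) and Ppp1r15a (1.46), and Atf4 RNA in B day 4 (0.33) and BM against M day 10 (0.45). The block gained Chac1 RPFs in B day 4 (−1.11) and day 10 (−1.09), relative-log-expression factors Atf4 RNA in M day 4 (−0.27), and the fit without the filter Atf5 RNA in B day 10 (−0.49). No all-gene share is given for these settings, so their numbers of calls cannot be read against a background. The cause of these moves was not tested. Depth limits Ddit3 and Fgf21 RPFs and the RNA of Trib3 and Chac1, which stood near the limit of 3 counts in many libraries.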

Other observations

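The Ppp1r15a RPF and RNA values of the BM day 10 mice ranked alike: mouse 1 was the lowest and mouse 3 the highest in both libraries (RPF 1.45, 4.10 and 4.53 CPM; RNA 9.50, 13.1 and 16.2 CPM). The Asns values of those mice had the same order (RPF 84.5, 208 and 281; RNA 39.6, 80.5 and 103 CPM). Atf4 RPFs did not, with 6.40, 6.04 and 19.9 CPM. These are descriptions of 3 mice with no test.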
